A study of Mus musculus with 40 samples.

Results

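The genes described here are the amino acid transporters of the mouse kidney and aorta, taken as every protein-coding gene whose symbol belongs to the solute carrier families Slc1, Slc3, Slc6, Slc7, Slc36, Slc38 or Slc43 and whose mean level reached 0.5 counts per 1000000 mapped to genes (CPM) in a tissue. The rule named 64 genes in each tissue, of which 37 were members in the kidneys and 29 in the aortas. Together these were 39 genes, with 27 shared, 10 in the kidneys alone and 2, Slc6a2 and Slc38a11, in the aortas alone. All members passed the filter on low counts, so that they lay among 15943 genes tested in the kidneys and 15122 in the aortas. Of the other names, 14 in the kidneys and 17 in the aortas had 0 counts in every library, and 13 and 18 lay below the minimum. The member closest to the minimum was Slc7a4 in the aortas at 0.534 CPM, with Slc1a6 just outside at 0.490. In the kidneys the nearest were Slc36a2 at 0.957 CPM inside and Slc7a10 at 0.296 outside.

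The libraries came from mice with a deletion of the epidermal growth factor receptor in endothelial cells (KO), made by crossing EGFRflox/flox C57BL/6 mice with B6.Cg-Tg(Tek-cre)1Ywa/J mice, and from wild type (WT) controls. The Cre recombinase of this line is driven by the Tie2 (Tek) promoter, which is also active in part of the blood cell lineage. WT mice carried the same Cre and no loxP sites, so Cre was shared by all groups. From 6 weeks of age the mice received a standard fat diet (SFD, called SD in the labels) with 10% or a high fat diet (HFD) with 60% of energy from fat for 18 weeks. Kidney and aorta, the latter freed of adjacent fat, were each sequenced in 4 groups of 5 mice, 40 libraries in all. Neither the sex of the mice nor the time of day of tissue collection is named.

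Kidney libraries held 19643033 to 48833447 counts, and aorta libraries 17520161 to 36452741. The kidney libraries carried the proximal tubule markers at 10263 to 13777 FPM (counts per 1000000 of a normalised library size) summed over 9 genes, against 0.760 to 1.93 in the aortas. The labels state that fat was removed from the aortas, in which 10 adipocyte markers summed to 179 to 780 FPM. Before any result, 1 pair in each tissue stood apart. Kidney libraries a1 (KO HFD) and a12 (WT HFD) had a median chi-square over genes of 0.0253, where the next closest pair had 1.60. Aorta libraries R-1 (WT SFD) and R-12 (KO SFD) had 0.0263 against 1.58. The values 0.0253 and 0.0263 lie below what 2 independent samplings of reads from 1 library would give. These were also the deepest libraries of their tissues. Counts were 48788716 in a1 and 48833447 in a12, against a kidney median of 24182781. In R-1 and R-12 they were 36419598 and 36452741, against an aorta median of 19683938. The libraries of a pair may hold the same reads, and then at least 1 of its genotype labels is wrong or incomplete. The files do not tell which. The pairs were kept in the main fits, where shared reads draw the 2 genotype groups of a pair together. Counts are also given without the pairs. Kidney libraries a8 and a9 (KO SFD) and a17 (WT SFD) had summed levels of 11 immediate-early genes of 1997, 1898 and 1828 FPM, against 76.5 to 164 in the other libraries. Total Egfr mRNA did not differ between genotypes beyond the spread in either tissue: in kidneys the log2 difference KO minus WT was -0.09 (SE 0.17, adjusted p = 1) under SFD and 0.06 (SE 0.17, adjusted p = 0.947) under HFD, and in aortas it was 0.15 (SE 0.15) and 0.13 (SE 0.15). Whole-tissue counts of a gene that other cell types also express are no check of a deletion in endothelial cells. Genes on chromosomes 9, X and Y, on the mitochondrial genome and on the distal end of chromosome 8 had 0 counts throughout. In that part of the genome lie 12 of the named genes, which cannot be judged here: Slc38a5, Slc6a14, Slc6a8, Slc7a3, Slc7a6, Slc38a8, Slc7a5, Slc36a4, Slc38a3, Slc6a20b, Slc6a20a and the name match Slc7a6os, which is no carrier.

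Amino acids are filtered in the glomerulus and recovered almost completely in the proximal tubule. Sodium-coupled carriers of families Slc1 and Slc6 take them up across the brush border, and exchangers release them on the blood side. Many Slc7 carriers are light chains that reach the membrane only when bound to a heavy chain of family Slc3. Slc3a1 (rBAT) serves the brush border, where it carries cystine and dibasic amino acids together with Slc7a9, and Slc3a2 (4F2hc, CD98) serves the basolateral side and most other cells. In vascular tissue, Slc38, Slc1 and cationic Slc7 carriers supply glutamine, small neutral amino acids and arginine, the substrate of nitric oxide synthase. In bulk tissue, fewer cells of a type and less RNA per cell cannot be told apart.

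The kidneys and the aortas shared 27 of the 39 members, and the most abundant ones differed between them. Levels were compared between genes only per kilobase of exon (GENCODE M21, GRCm38), as FPM per kb averaged over the 20 libraries of a tissue. In the kidneys the highest was Slc7a13, the aspartate, glutamate and cystine light chain of the late proximal tubule (chr4:19818725-19842218), at 519 FPM per kb. It was followed by its heavy chain Slc3a1 (chr17:85028376-85064236) at 176, the glycine and neutral carrier Slc6a18 (chr13:73661752-73678023) at 156 and its neighbour Slc6a19 (chr13:73679745-73704865), the main neutral amino acid carrier of the brush border, at 62.7. Slc3a2 (chr19:8706882-8723369) at 61.4 and Slc7a9 (chr7:35448796-35466036) at 59.1 FPM per kb came next, then Slc7a7 at 45.9 and Slc6a13 at 43.7. In the aortas the order was led by Slc38a2 (chr15:96687392-96699730), a system A carrier of small neutral amino acids, at 45.8 FPM per kb and by the glutamine exchanger Slc1a5 (chr7:16781340-16798274) at 41.7. Slc43a3 at 29.3, Slc38a10 at 22.4, Slc3a2 at 21.2, Slc6a6 at 17.8, and Slc1a4 and Slc6a7 at 7.69 each completed the first 8.

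Levels of the tissue comparison come from a fit of all 40 libraries, whose common normalisation gives other FPM than the fits within a tissue (Slc3a2 averages 232 here and 217 in the kidney fit), so the 2 scales are not to be set side by side. In this fit 20 of the 39 members were higher in the kidneys and 12 higher in the aortas at an adjusted p under 0.05 and a fold change over 2, where 51.8% of all genes tested were called (27.5% higher in kidneys and 24.3% in aortas). The 12 members of 1 tissue alone, 10 in kidneys and 2 in aortas, entered through the tissue where they are high and had to differ, so only the 27 shared members bear on the split. Among these it was 10 and 10, with 7 not called (Slc38a10, Slc6a17, Slc1a4, Slc38a4, Slc38a7, Slc38a9 and Slc6a9). Of the 7, Slc38a10, Slc6a17, Slc6a9 and Slc1a4 passed the adjusted p and missed the fold change alone. Since the tissues came as separate tables, tissue and table cannot be told apart. Slc6a18 averaged 738 FPM and Slc7a12 12.2 FPM in the kidneys and both had 0 counts in all 20 aortas, which makes them at least 113935-fold and 1883-fold higher against a floor of 3 counts over the aortas together. Slc7a9 had 1 count and Slc6a19 14 counts in all aortas, against kidney means of 170 and 337 FPM. The shared heavy chain Slc3a2 averaged 232 ± 59.0 FPM (SD, n = 20) in kidneys and 69.6 ± 8.88 in aortas. Its light chains Slc7a8 (158 ± 58.8 against 2.89 ± 1.15) and Slc7a7 (163 ± 41.2 against 5.53 ± 0.872) differed more widely. The other light chains of Slc3a2 were not compared. Slc7a5 and Slc7a6 lie in the part of the genome with 0 counts, and Slc7a10 and Slc7a11 were below the minimum in both tissues. Higher in the aortas were Slc38a2 (377 ± 94.0 against 61.6 ± 17 FPM), Slc1a5 (162 ± 30.2 against 43.1 ± 8.14), Slc43a3 (122 ± 27.8 against 23.5 ± 6.75), which is known as a purine nucleobase carrier, the cationic carrier Slc7a2 (60.4 ± 10.9 against 6.22 ± 1.99) and Slc38a1 (52.8 ± 12.3 against 3.53 ± 0.770). Slc6a7, described as a proline carrier of neurons, averaged 24.7 ± 7.97 FPM in aortas and 1.28 ± 1.06 in kidneys, and Slc38a11 13.9 ± 7.23 and 0.216 ± 0.132.

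**Figure D1:**
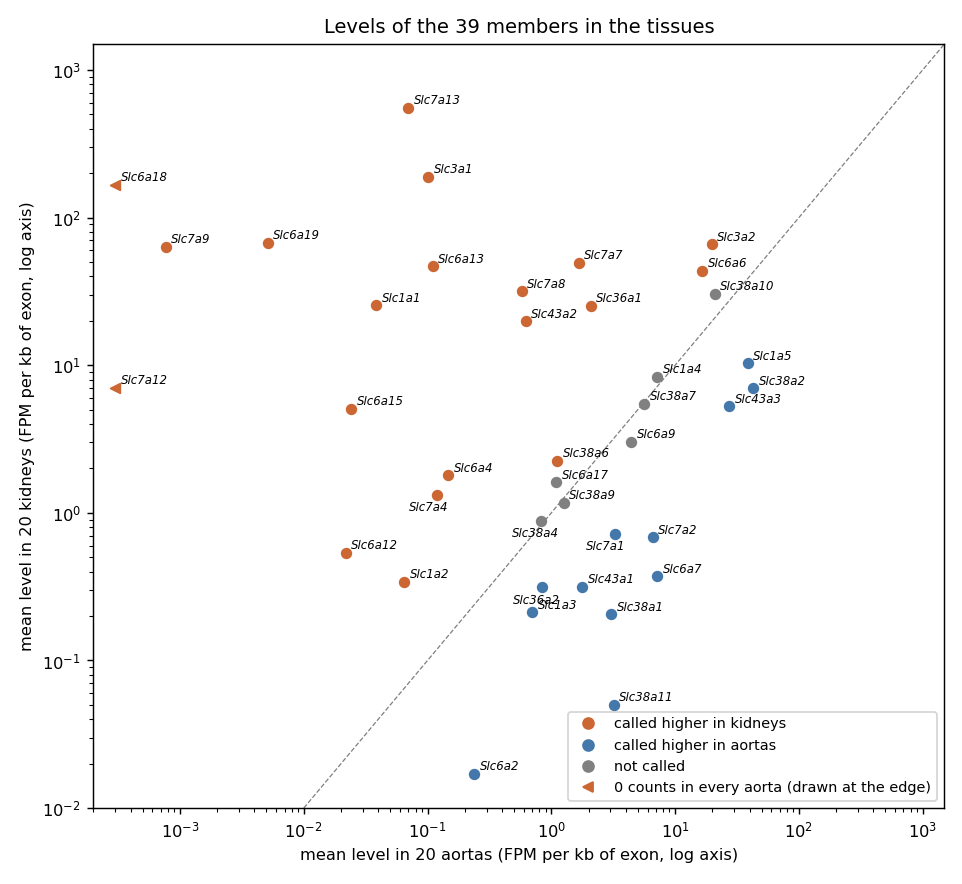
Mean level of each of the 39 members over 20 aortas (x axis) and 20 kidneys (y axis), in FPM per kb of exon on log axes, with colours for the call of the tissue comparison and members with 0 counts in every aorta drawn at the edge. The brush-border carriers Slc6a18, Slc7a9, Slc6a19, Slc7a13 and Slc3a1 sit far on the kidney side, and Slc38a2, Slc1a5, Slc7a2, Slc38a1 and Slc6a7 on the aorta side.

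Under HFD kidney transporters rose and fell, with the basolateral exchangers among those that rose and family Slc1 among those that fell. The comparison asks what the diet changed in each genotype. In WT kidneys 13 of 37 members passed an adjusted p of 0.05, 7 higher and 6 lower under HFD, where 6.71% of the 15943 genes were called (3.03% higher and 3.68% lower). In KO kidneys 17 passed, 8 higher and 9 lower, where 6.34% were called (3.16% and 3.18%). Averaged over the genotypes 22 passed, 10 higher and 12 lower, where 16.4% were called (7.7% higher and 8.7% lower). All 13 members called in WT were also called in KO with the same direction. Slc1a2, Slc6a9, Slc7a9 and Slc3a1 passed in KO alone, but no member passed the test of the difference between the genotypes. With a fold change over 1.5 and over 5 FPM in at least 1 group as further conditions, 5 members passed in WT (2.18% of all genes), 10 in KO (2.16%) and 11 in the average (2.92%). The 5 HFD libraries lay wholly above the 5 SFD libraries for 7 members and wholly below for 5 in WT (6.64% of all genes in either direction), and for 6 and 9 members in KO (7.81%). Over both genotypes, all 10 HFD libraries lay above all 10 SFD libraries for 5 members and below for 4 (2.84%). The median log2 change of the members was -0.12 in the average, against -0.00 over all genes, and their median absolute change was 0.36 against 0.14. By family, 5 of 8 Slc7 members rose and 1 fell, 5 of 10 Slc6 members fell and 1 rose, 3 of 5 Slc1 members fell, 2 of 7 Slc38 members rose, and families Slc3, Slc36 and Slc43 gave 1 and 1, 0 and 1, and 1 and 1 higher and lower calls. Without the libraries a1 and a12 the counts were 10 in WT, 15 in KO and 18 in the average, and without a8, a9 and a17 the count in KO was 10. Leaving out a single library ended the calls of Slc38a4, Slc43a2, Slc6a13, Slc6a17 and Slc7a7 in WT, for 4 to 14 of the 20 libraries depending on the gene, and those of Slc1a2, Slc3a1, Slc43a2, Slc6a13, Slc7a12 and Slc7a9 in KO, for 5 to 15. In the average it ended those of Slc36a1, Slc43a1 and Slc6a18, and the other 19 held.

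**Figure D2:**
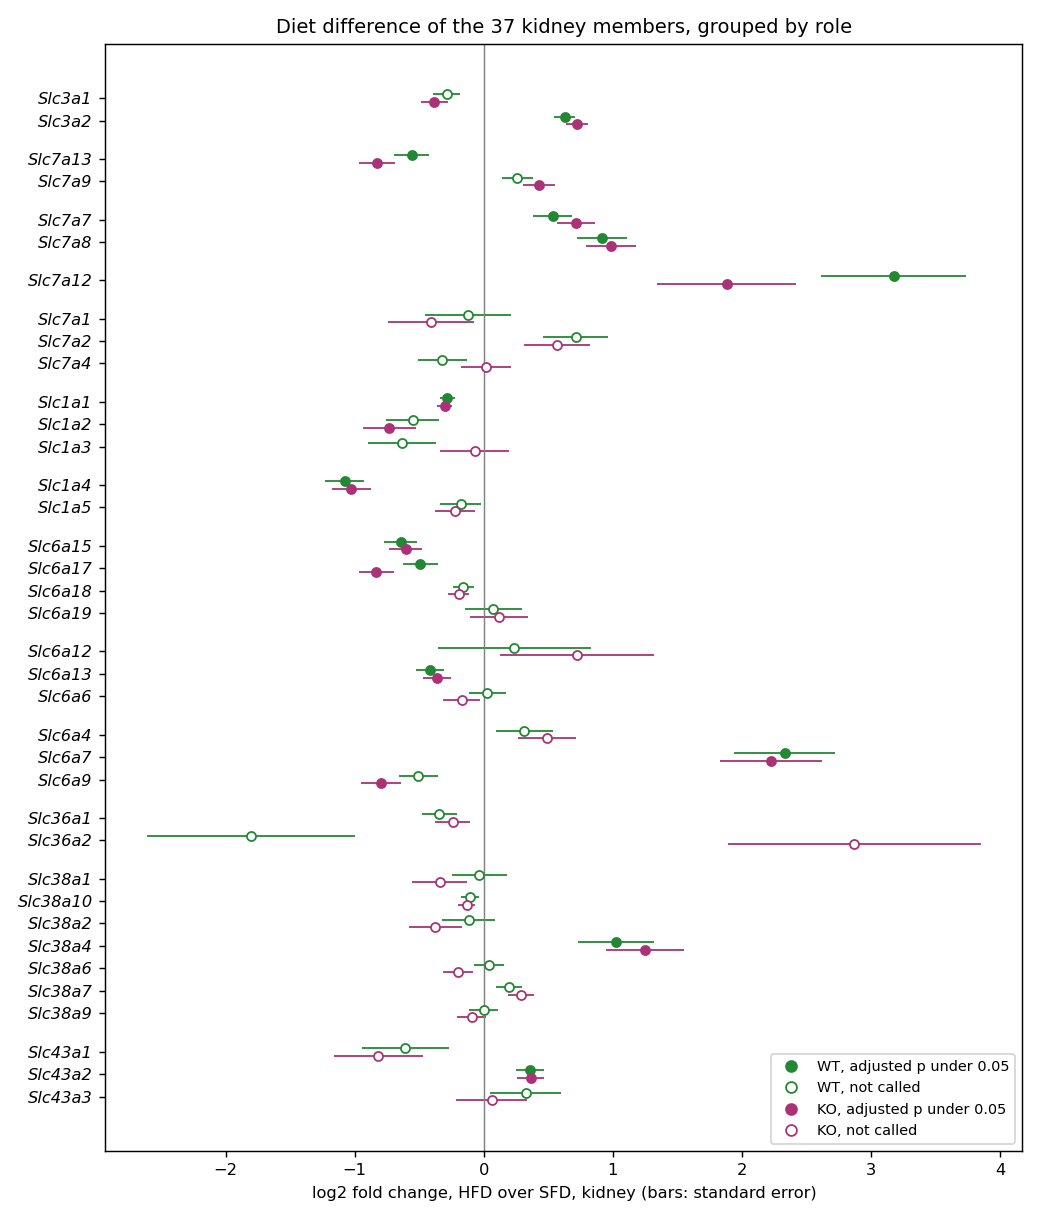
Log2 change under HFD against SFD of the 37 kidney members, grouped by role, with points for WT and KO, filled where the adjusted p was under 0.05, and bars for the standard error. Slc7a12 and Slc6a7 have the largest called increases and Slc1a4 the largest called decrease, and the error bars of Slc36a2 are the widest.

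The basolateral exchangers rose together with their heavy chain. Slc3a2 (ENSMUSG00000010095), the heavy chain of the basolateral light chains, read 151, 179, 152, 170 and 173 FPM in WT SFD kidneys and 219, 289, 258, 247 and 260 in WT HFD kidneys. In KO the SFD kidneys gave 158, 157, 204, 160 and 166 FPM and the HFD kidneys 289, 264, 268, 277 and 294. Every HFD library lay above every SFD library of either genotype. The log2 change was 0.63 (SE 0.08, adjusted p = 6.93e-05) in WT and 0.72 (SE 0.08, adjusted p = 1.52e-05) in KO, and in the average it corresponded to a 1.60-fold increase (adjusted p = 1.11e-07).

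Slc7a8 (ENSMUSG00000022180, chr14:54722209-54781946), the LAT2 light chain that exchanges neutral amino acids across the basolateral membrane, read 86.8, 89.8, 71.6, 140 and 133 FPM in WT SFD and 170, 184, 205, 215 and 209 in WT HFD kidneys. KO SFD kidneys gave 95.4, 103, 119, 58.1 and 111 FPM and KO HFD kidneys 184, 145, 248, 172 and 216. The groups did not overlap within either genotype, and the averaged rise was 1.93-fold (log2 change 0.95, SE 0.14, adjusted p = 6.04e-05). Slc7a7 (ENSMUSG00000000958, chr14:54369442-54417780), the y+LAT1 light chain that releases arginine and lysine to the blood side and is mutated in lysinuric protein intolerance, rose from 136, 102, 120, 127 and 141 FPM to 161, 182, 174, 195 and 192 in WT. In KO it rose from 145, 96.2, 145, 68.0 and 120 FPM to 184, 173, 210, 180 and 195. Its log2 change was 0.53 (SE 0.15, adjusted p = 0.0347) in WT and 0.71 (SE 0.15, adjusted p = 0.00498) in KO, and in WT the call was lost without the libraries a1 and a12. The lowest KO SFD value of both light chains came from a9, 1 of the 3 libraries with high immediate-early genes. Without a8, a9 and a17 the averaged calls of both remained.

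Slc7a7 is also expressed by macrophages. The 7 macrophage markers summed to 91.1 to 152 FPM under SFD and 125 to 166 under HFD in WT kidneys, and to 108 to 142 and 118 to 168 in KO kidneys. In the average, where 7.7% of all genes were called higher, 6 of the 7 rose (Cd68 by 0.68, C1qc by 0.67 on the log2 scale) while Csf1r fell by 0.26. Their part in the Slc7a7 result was not tested. Slc43a2 (LAT4), a basolateral uniporter of large neutral amino acids, averaged 161 ± 13 FPM (SD, n = 5) in WT SFD and 206 ± 20.8 in WT HFD kidneys, and 165 ± 22.7 and 213 ± 32.1 in KO. The change was 0.36 on the log2 scale in both genotypes (SE 0.11, adjusted p = 0.0476 and 0.0466). The averaged change had an adjusted p of 0.00208.

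**Figure D3:**
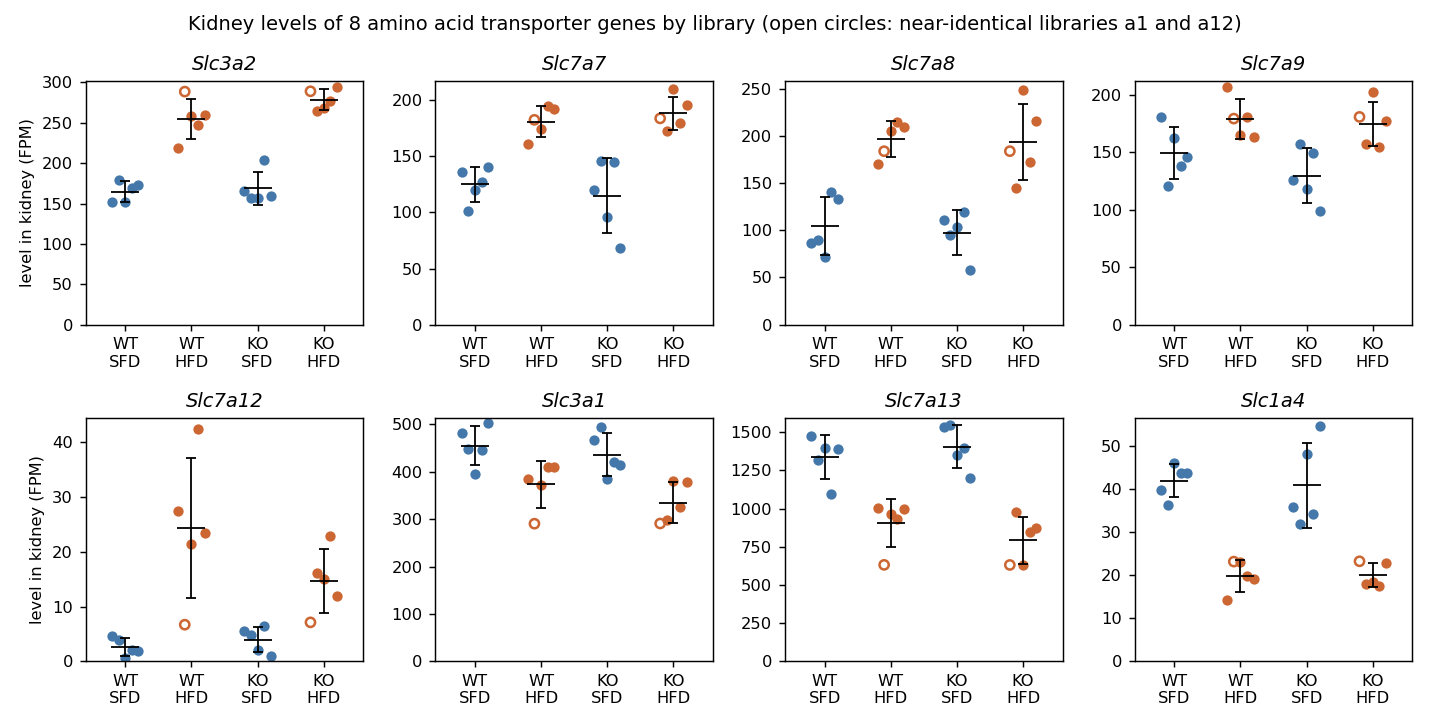
Level in every kidney library, in FPM, of 8 members, by genotype and diet, with bars at the mean and SD of 5 libraries. Open circles mark the near-identical libraries a1 and a12. Slc3a2, Slc7a7 and Slc7a8 are higher and Slc7a13 and Slc1a4 lower in all HFD libraries than in the SFD libraries of the same genotype.

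On the brush border the heavy chain and its light chains did not move in 1 direction. Slc7a13 (ENSMUSG00000041052) read 1477, 1316, 1396, 1099 and 1389 FPM in WT SFD and 1001, 632, 967, 935 and 997 in WT HFD kidneys. KO SFD kidneys gave 1545, 1351, 1400, 1202 and 1536 FPM, and KO HFD kidneys 632, 980, 630, 850 and 872. All HFD libraries lay below all SFD libraries. The log2 change was -0.56 (SE 0.14, adjusted p = 0.0145) in WT and -0.83 (SE 0.14, adjusted p = 0.000656) in KO. The near-identical libraries a1 and a12 share the value of 632 FPM, and the averaged call remained without them.

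The heavy chain Slc3a1 (ENSMUSG00000024131) read 482, 447, 396, 447 and 503 FPM in WT SFD and 385, 290, 372, 410 and 409 in WT HFD kidneys, which overlapped. In KO it read 495, 384, 421, 413 and 467 FPM under SFD and 291, 298, 380, 325 and 379 under HFD, without overlap. It fell by 0.38 on the log2 scale in KO (SE 0.10, adjusted p = 0.0309) and by 0.33 in the average (SE 0.07, adjusted p = 0.00334), while WT at -0.29 did not pass (adjusted p = 0.119). Slc7a9 (ENSMUSG00000030492), the b0,+AT light chain that together with Slc3a1 is affected in cystinuria, moved the other way. WT kidneys read 181, 121, 162, 139 and 146 FPM under SFD and 207, 179, 166, 181 and 163 under HFD. KO kidneys read 157, 118, 149, 98.9 and 126 FPM under SFD and 181, 158, 202, 155 and 177 under HFD. The groups overlapped in both genotypes. Slc7a9 rose by 0.43 in KO (SE 0.12, adjusted p = 0.0397) and by 0.34 in the average (SE 0.09, adjusted p = 0.00845), with 0.26 (adjusted p = 0.242) in WT. In KO the call for Slc3a1 was lost without a8, a9 and a17, and that for Slc7a9 also without a1 and a12.

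Slc7a13 is known to be higher in male than in female mouse kidneys. Of 10 other genes known for male-biased levels in mouse kidney, 8 fell under HFD in the average and none rose. Over all genes 7.7% were called higher and 8.7% lower there. Cndp2 (log2 change -1.25), Acsm3 (-1.84), Hsd11b1 (-1.11) and Slco1a1 (-1.42) were among those that fell. The 10 genes summed to 30484 to 55685 FPM under SFD and 17883 to 27319 under HFD in WT kidneys. In KO kidneys the sums were 33837 to 41337 and 21967 to 29010, and the diets did not overlap in either genotype. Of 6 tested genes known for female-biased levels, 2 rose (Prlr by 2.46, Cyp4a14 by 1.62) and 3 fell (Slc22a19 by 1.14, Cyp2d12 by 1.60, Slco1a6 by 0.14). Their part in the Slc7a13 result was not tested. The 9 proximal tubule markers gave 2 higher and 1 lower call in the average, where 16.4% of all genes were called. Their summed level, in which abundant genes weigh most, overlapped between all groups.

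Slc7a12 (ENSMUSG00000039710, chr3:14480697-14505830), the asc-type light chain asc-2 of small neutral amino acids, whose heavy chain is neither Slc3a1 nor Slc3a2, had the largest called change of all members in WT and in the average, and Slc6a7 the largest in KO. It read 4.69, 3.99, 0.656, 2.09 and 1.86 FPM in WT SFD and 27.5, 6.70, 21.5, 42.3 and 23.4 in WT HFD kidneys. KO SFD kidneys gave 4.86, 2.02, 6.52, 1.01 and 5.48 FPM, and KO HFD kidneys 7.12, 16.2, 15.1, 22.8 and 12.0. The lowest HFD values, 6.70 and 7.12 FPM, belong to the near-identical libraries a12 and a1. The log2 change was 3.17 (SE 0.56, adjusted p = 0.0017) in WT and 1.88 (SE 0.54, adjusted p = 0.0442) in KO, and 2.53 (SE 0.39, adjusted p = 0.000152), or 5.77-fold, in the average. The KO call was lost under 16 of 30 alternatives, and the averaged call under none of 29, all at an adjusted p of 0.05. The difference between the genotypes in this change was -1.29 (SE 0.75, adjusted p = 1), which did not pass.

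Among the carriers of cationic amino acids, Slc7a2 (CAT-2) read 5.06, 3.95, 2.19, 6.12 and 6.41 FPM in WT SFD and 9.05, 6.70, 6.96, 8.14 and 8.15 in WT HFD kidneys. In KO the values were 5.73, 3.67, 4.89, 2.06 and 5.21 under SFD and 6.59, 4.96, 7.92, 5.87 and 6.55 under HFD. The WT groups did not overlap and the KO groups did. Slc7a2 passed in the average alone (log2 change 0.64, SE 0.18, adjusted p = 0.0176), and that call was lost without a8, a9 and a17, at an adjusted p of up to 0.0655 over its alternatives. Slc7a1 (CAT-1) at -0.12 in WT and -0.41 in KO and Slc7a4 at -0.32 and 0.02 were not called.

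Promoters were read for the members as the 250 bases before each RefSeq transcript start (GRCm38.p6). Of the 39 members, 26 matched, with 44 windows among 32851. Shown are the windows of the heavy chain that rose under HFD (Slc3a2, chr19:8713898-8714147, minus strand), of 1 of its light chains that rose, chosen for a motif match among the 5 windows of that gene (Slc7a7, chr14:54417945-54418194, minus strand), of the heavy chain that fell (Slc3a1, chr17:85028097-85028346, plus strand), and of the neutral exchanger that fell in kidneys alone (Slc1a4, chr11:20332714-20332963, minus strand). They are written 5′ to 3′, with matches to a searched motif in capitals.
Slc3a2: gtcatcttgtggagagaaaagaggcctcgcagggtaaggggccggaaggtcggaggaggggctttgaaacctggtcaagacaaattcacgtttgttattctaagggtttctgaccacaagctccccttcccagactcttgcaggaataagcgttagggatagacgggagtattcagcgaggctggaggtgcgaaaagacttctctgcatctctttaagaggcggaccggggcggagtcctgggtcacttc
Slc7a7: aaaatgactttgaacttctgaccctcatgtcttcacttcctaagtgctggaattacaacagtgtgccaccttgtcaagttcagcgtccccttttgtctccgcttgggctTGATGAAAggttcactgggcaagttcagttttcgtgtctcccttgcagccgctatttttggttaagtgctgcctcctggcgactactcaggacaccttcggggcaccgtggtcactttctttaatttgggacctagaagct
Slc3a1: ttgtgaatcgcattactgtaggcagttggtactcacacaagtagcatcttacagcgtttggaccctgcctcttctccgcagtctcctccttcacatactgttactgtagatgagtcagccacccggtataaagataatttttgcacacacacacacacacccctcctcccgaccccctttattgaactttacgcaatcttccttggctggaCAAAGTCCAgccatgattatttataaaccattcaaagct
Slc1a4: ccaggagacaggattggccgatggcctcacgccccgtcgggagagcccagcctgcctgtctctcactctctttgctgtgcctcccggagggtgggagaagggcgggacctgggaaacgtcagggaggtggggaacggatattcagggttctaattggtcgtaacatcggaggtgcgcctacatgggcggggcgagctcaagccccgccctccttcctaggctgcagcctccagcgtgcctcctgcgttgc
Both strands were searched for 5 motifs. TGATGNAA, the core shared by C/EBP-ATF response elements, lay in 3.45% of all windows and among the members in Slc7a7 alone, in 2 of its windows, here 141 bases before the start. CAAAGTCCA, an HNF4 motif, lay in 0.384% of windows and among the members in Slc3a1 alone, 39 bases before the start. The E-box CACGTG lay in 6.02% of windows and in Slc36a1, Slc38a7 and Slc43a1. An HNF1 motif (GTTAAT, then any base, then ATT, in 0.371% of windows) and a direct repeat of AGGTCA spaced by 1 base (0.0335%) matched no member window. The windows shown of Slc3a2 and Slc1a4 held none of the 5, nor did those of the light chains Slc7a8 and Slc7a9, which also rose, or the other 3 of Slc7a7. These are matches of letters and carry no measurement of binding.

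Family Slc1 fell where it moved. Slc1a4 (ASCT1, ENSMUSG00000020142, chr11:20302180-20332713), a sodium-dependent exchanger of alanine, serine, cysteine and threonine, read 39.8, 36.3, 46.0, 43.6 and 43.8 FPM in WT SFD and 14.1, 23.1, 23.0, 19.7 and 19.1 in WT HFD kidneys. In KO the values were 31.8, 48.0, 34.1, 54.5 and 35.9 under SFD and 23.2, 18.0, 18.5, 17.6 and 22.8 under HFD. All HFD libraries lay below all SFD libraries, with a log2 change of -1.08 (SE 0.15, adjusted p = 0.000118) in WT and -1.03 (SE 0.15, adjusted p = 0.000183) in KO. The averaged fall was 2.07-fold. Over 29 alternatives its log2 change lay between -1.11 and -0.99.

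The glutamate carriers of the family were lower by less. Slc1a1 (EAAT3), the glutamate and aspartate carrier of the proximal tubule brush border, averaged 215 ± 12.1 FPM (SD, n = 5) in WT SFD and 177 ± 5.22 in WT HFD kidneys, and 218 ± 15.4 and 177 ± 8.24 in KO, without overlap in either genotype (log2 change -0.28 and -0.30, SE 0.06 each, adjusted p = 0.00552 and 0.00287). Slc1a2, known best as the glial glutamate carrier, was low, at 4.96, 5.07, 5.99, 4.72 and 3.31 FPM in WT SFD and 5.35, 2.48, 2.73, 3.37 and 2.56 in WT HFD kidneys. KO SFD kidneys gave 5.47, 5.66, 5.82, 5.08 and 4.76 FPM and KO HFD kidneys 2.49, 3.46, 4.33, 3.29 and 2.61. It passed in KO (-0.73, SE 0.21, adjusted p = 0.038) and in the average (-0.64, SE 0.15, adjusted p = 0.00427), and the KO call was lost without a1 and a12. The glutamine exchanger Slc1a5 (group means 41.8 ± 7.44, 36.9 ± 7.61, 44.2 ± 8.50 and 37.9 ± 6.47 FPM, ordered as for Slc1a1) and Slc1a3 were not called.

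In family Slc6, 5 of 10 members fell in the average, Slc6a7 rose and 4 were not called. Slc6a19 averaged 316 ± 84.0 FPM (SD, n = 5) under SFD and 333 ± 40.9 under HFD in WT kidneys, and 291 ± 104 and 316 ± 46.7 in KO kidneys, with an averaged log2 change of 0.10 (SE 0.16, adjusted p = 0.730). Slc6a18 averaged 739 ± 66.1, 661 ± 65.6, 721 ± 48.3 and 630 ± 44.3 FPM in the same order. Its averaged change of -0.18 (SE 0.06, adjusted p = 0.0385) was lost when any of 12 single libraries was left out. The taurine carrier Slc6a6 (0.03 in WT, -0.17 in KO) was not called, and Slc6a13 (GAT2), which carries GABA and taurine, fell by 0.39 in the average (SE 0.08, adjusted p = 0.00112), a call kept under all 29 alternatives at that threshold. Its changes were -0.42 in WT and -0.36 in KO (adjusted p = 0.0206 and 0.0496), and the KO call was kept under only 8 of 30 alternatives, with DESeq2 size factors and other filters among those that ended it.

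Slc6a15 (B0AT2), a carrier of branched-chain amino acids and proline, read 43.2, 42.9, 38.7, 53.1 and 63.8 FPM in WT SFD and 28.8, 29.1, 30.5, 34.2 and 31.9 in WT HFD kidneys. In KO it read 38.3, 45.0, 39.6, 41.8 and 39.5 under SFD and 29.2, 20.5, 28.3, 23.1 and 33.3 under HFD. The diets did not overlap, with log2 changes of -0.64 and -0.60 (SE 0.13 each, adjusted p = 0.00332 and 0.00535). Its relative Slc6a17 (NTT4), described as a vesicular neutral amino acid carrier of neurons, fell from 16.2, 18.3, 14, 19.1 and 19.9 FPM to 11.9, 11.1, 12.2, 15.2 and 12.0 in WT and from 21.9, 19.6, 14.8, 25.6 and 19.7 to 11, 9.67, 12.6, 13.7 and 10.1 in KO. The averaged change was -0.66 (SE 0.10, adjusted p = 6.23e-05), and the WT call was lost without a1 and a12.

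Slc6a9 (GlyT1), the glycine carrier, read 19.1, 17.2, 21.3, 17.5 and 19.8 FPM in WT SFD and 19.1, 10.3, 10.7, 13.9 and 12.9 in WT HFD kidneys, where library a11 lay within the SFD range. KO SFD kidneys gave 20.3, 14.8, 15.5, 16 and 16.1 FPM and KO HFD kidneys 10.4, 7.34, 9.76, 7.97 and 12.0, without overlap. The change passed in KO (-0.80, SE 0.16, adjusted p = 0.00263) and narrowly missed in WT (-0.51, SE 0.15, adjusted p = 0.0519). Slc6a7 rose from 0.499, 0.558, 0.568, 0.152 and 0.248 FPM to 3.12, 1.03, 2.12, 2.92 and 1.12 in WT, and from 0.304, 0.454, 0.419, 0.336 and 0.494 to 0.927, 2.64, 1.58, 2.54 and 1.90 in KO. No HFD library overlapped the SFD libraries, and the averaged rise was 4.84-fold (log2 change 2.28, SE 0.28, adjusted p = 7.18e-06), at levels under 5 FPM throughout. The betaine carrier Slc6a12 and the serotonin carrier Slc6a4 were not called.

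Family Slc38 gave 2 calls. Slc38a4 (SNAT4) averaged 2.33 ± 1.24 FPM in WT SFD and 4.74 ± 0.977 in WT HFD kidneys and 2.08 ± 0.237 and 4.94 ± 1.46 in KO (log2 change 1.02 and 1.25, adjusted p = 0.0408 and 0.0131). Both calls within a genotype were lost without a8, a9 and a17, and the averaged rise of 1.14 (SE 0.21) passed under every alternative that kept the adjusted p alone as threshold. Slc38a7, a lysosomal glutamine carrier, rose by 0.24 in the average (SE 0.07, adjusted p = 0.0246), a call that was lost without a1 and a12 and without a8, a9 and a17. Slc38a2, the main aortic member, averaged 60.8 ± 17.7, 56.0 ± 7.02, 63.9 ± 26.2 and 49.3 ± 3.34 FPM in the 4 kidney groups and was not called, and its highest kidney values, 110 FPM in a9 and 86.4 in a17, lay in libraries with high immediate-early genes. Slc38a1, Slc38a6, Slc38a9 and Slc38a10 were not called.

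Of the remaining members, Slc36a1 (PAT1), a proton-coupled carrier of lysosomes, and Slc43a1 (LAT3) fell in the average by 0.29 and 0.71 (adjusted p = 0.0414 and 0.0485). Both calls were fragile: Slc36a1 lost its call when any of 16 single libraries was left out, and Slc43a1 when any of 12 was, with its change reaching -0.10 over the alternatives. Slc36a2 (PAT2), known for its level in brown adipocytes, varied most among replicates. WT kidneys read 3.29, 0.988, 0.131, 5.21 and 0.165 FPM under SFD and 0.253, 0.695, 0.885, 0.703 and 0.240 under HFD. KO kidneys read 0.101, 0, 0.140, 0.504 and 0 FPM under SFD and 0.632, 0.983, 2.1, 1.53 and 0.475 under HFD. Its diet change was -1.80 in WT and 2.87 in KO, neither called. The summed level of the 6 brown adipocyte markers was highest in a19, at 103 FPM, and a16, at 42.0 FPM, among WT SFD kidneys, the libraries with the highest Slc36a2, against 14.1 to 20.2 in the other 3 of that group. In KO SFD kidneys a9 had both the highest Slc36a2 and the highest marker sum (25.7 FPM, against 12.9 to 15.4 in the other 4). The order differed under HFD: in KO HFD kidneys Slc36a2 was highest in a3, which had the lowest marker sum of the group (15.9 FPM), and in WT HFD kidneys it was highest in a13 (14.4 FPM), while a12 had the highest sum. The 10 adipocyte markers summed highest in the library with the highest Slc36a2 in all 4 kidney groups, at 349.6 FPM in a19, 258.2 in a13, 227.4 in a9 and 325.3 in a3. The part of either list in the kidney result was not tested.

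The other genes of amino acid handling also moved in both directions under HFD, in the kidney average where 16.4% of all genes were called. Of 46 tested genes of amino acid catabolism, 11 rose and 17 fell, with a median log2 change of -0.08 against -0.00 over all genes. Prodh2, the hydroxyproline dehydrogenase, rose by 1.58 (SE 0.16), Gldc, the glycine decarboxylase, by 1.52 (SE 0.21), Gatm, the first enzyme of creatine synthesis, by 1.01 (SE 0.14) and Agxt2 by 0.80 (SE 0.06). Ivd, of leucine breakdown, and Bcat1 and Bcat2, the branched-chain aminotransferases, fell by 0.56 (SE 0.05), 0.85 (SE 0.16) and 0.28 (SE 0.07). Of 16 tested amino acid carriers outside the 7 families, 4 rose and 2 fell. Slc16a10 (TAT1), which releases aromatic amino acids across the basolateral membrane, rose by 0.86 (SE 0.11, adjusted p = 1.77e-05), and the lysosomal carriers Mfsd12 and Pqlc2 by 0.68 and 0.30.

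Among 24 genes of the ATF4 amino acid response, 4 rose and 6 fell, with a median log2 change of -0.15. The serine synthesis enzymes Phgdh (1.79, SE 0.13, adjusted p = 1.14e-08), Psat1 (1.44, SE 0.15) and Psph (0.37, SE 0.07) rose, while Atf4 itself fell by 0.36, Ddit4 by 1.04 and Atf3 by 3.44. Atf3 is also 1 of the 11 immediate-early genes, of which 7 fell in the average and none in either genotype alone, and the SFD groups hold the libraries a8, a9 and a17. Their part in the falls of Atf3 and Ddit4 was not tested. Of 25 tested genes of amino acid sensing by mTORC1, 3 were called, a share below the 16.4% of all genes, so the list as a group did not stand above the background. Of these Mtor fell by 0.57 (SE 0.06, adjusted p = 1.79e-06) and Sesn2 and Sesn1, the sestrins, rose by 0.45 and 0.22.

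The deletion itself left the transporters without a call in either tissue. KO and WT were compared under each diet, and the diet effect was compared between the genotypes. In edgeR's quasi-likelihood test 0 members and 0 of all genes (0%) passed in any of these comparisons, and DESeq2's Wald test called 0 members as well. Without the near-identical pairs edgeR's test called 0 members in each of these comparisons too. Before adjustment, 2 members in kidneys under SFD (2.67% of all genes), 1 under HFD (3.42%) and 1 for the interaction (1.79%) had a p under 0.05. In aortas the counts were 1 (2.28%), 1 (5.85%) and 0 (0.84%). The KO minus WT log2 difference lay within 0.25 for 32 of 37 members under SFD and 31 of 37 under HFD in kidneys, and for 25 and 21 of 29 in aortas.

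The members with the smallest p were described whatever their adjusted value. In kidneys under SFD they were Slc36a2 (-3.66, SE 0.96, adjusted p = 1), whose WT SFD values are set out above, Slc1a3 (-0.64, SE 0.26) and Slc6a15 (-0.24, SE 0.13). Under HFD they were Slc6a9 (-0.49, SE 0.16, adjusted p = 0.814), Slc38a6 (-0.25, SE 0.12) and Slc6a6 (-0.28, SE 0.14). For the interaction they were Slc36a2 (4.67, SE 1.27, adjusted p = 1), Slc6a17 (-0.34, SE 0.19) and Slc7a12. In aortas under SFD they were Slc36a2 (-0.87, SE 0.35, adjusted p = 1), the norepinephrine carrier Slc6a2 (-0.63, SE 0.35) and Slc38a6 (0.21, SE 0.16). Under HFD the aortas gave Slc7a8 (0.82, SE 0.33, adjusted p = 0.714), Slc36a2 (-0.71, SE 0.36) and Slc36a1 (0.27, SE 0.16). The 10 adipocyte markers were lower in KO aortas too, with 10 of 10 negative log2 differences and a median of -1.28 under SFD and -0.57 under HFD, none of them called. With an adipocyte score as a covariate the Slc36a2 differences were -0.05 and -0.36. Slc36a1 was the only aortic member whose KO HFD libraries, at 12.8 to 14.5 FPM, all lay above the WT HFD libraries, at 8.69 to 12.1 FPM, where 0.946% of all genes were separated in this way. For the aortic interaction they were Slc6a4 (-2.83, SE 1.57), Slc43a2 (0.57, SE 0.41) and Slc7a8 (0.55, SE 0.46), each with an adjusted p of 1.

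In the aortas HFD called no transporter. In edgeR's test 0 of 29 members passed in WT, where 0.0132% of genes were called, in KO (0%) and in the average (0.0529%), and DESeq2 called 0 members too. Before adjustment 2 members in WT, 0 in KO and 5 in the average had a p under 0.05, beside 2.61%, 4.56% and 6.7% of all genes. Slc1a4 read 26.8, 30.0, 26.7, 28.8 and 31.3 FPM in WT SFD and 35.3, 31.5, 30.8, 32.2 and 32.3 in WT HFD aortas, and 31.9, 27, 26.6, 26.7 and 29.1 in KO SFD and 28.9, 30.9, 31.5, 31.5 and 34.3 in KO HFD aortas. The groups overlapped within each genotype. Its averaged change of 0.16 (SE 0.06, adjusted p = 0.512) had the smallest p, followed by Slc1a3 (-0.41, SE 0.15, adjusted p = 0.529) and Slc1a2 (-0.52, SE 0.22, adjusted p = 0.637).

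In WT aortas the smallest p values were those of Slc1a3 (-0.56, SE 0.21), Slc1a4 (0.18, SE 0.08) and Slc36a2 (-0.66, SE 0.35). The 10 adipocyte markers had a median change of -0.82 there, and with an adipocyte score as a covariate the Slc36a2 change was 0.08. In KO aortas the smallest were those of Slc1a4 (0.15, SE 0.08), Slc1a2 (-0.56, SE 0.31) and Slc7a2 (0.24, SE 0.15). The most abundant aortic members were not called in any diet or genotype comparison within the aortas. Slc38a2 averaged 352 ± 77.4 FPM (SD, n = 5) under SFD and 385 ± 82.1 under HFD in WT aortas, and 407 ± 88.9 and 476 ± 133 in KO aortas. Slc1a5 averaged 183 ± 29.1, 170 ± 34.0, 185 ± 42.6 and 157 ± 23.6 FPM in the same order. The heavy chain Slc3a2 averaged 71.8 ± 7.0, 75.3 ± 7.24, 73.6 ± 7.96 and 77.9 ± 15.6 FPM.

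Whether the diet effect differed between the tissues was tested directly in the fit of all 40 libraries, a test added after the data had been seen. Of the 27 shared members, 9 passed, where 6.5% of all genes tested were called, and 6 passed without both near-identical pairs. The kidney minus aorta difference in log2 diet change was -1.22 for Slc1a4 (SE 0.12, adjusted p = 2.32e-08), which fell in kidneys alone, and -0.77 and -0.82 for Slc6a17 and Slc6a9. It was 0.59 for the heavy chain Slc3a2 (SE 0.10, adjusted p = 0.000294), 1.12 for Slc7a8 (SE 0.26, adjusted p = 0.00703) and 0.53 for Slc7a7 (SE 0.15, adjusted p = 0.0234). Slc6a7 (2.53, SE 0.37, adjusted p = 2.49e-05), Slc38a4 (1.39, SE 0.29, adjusted p = 0.00214) and Slc38a7 (0.33, SE 0.10, adjusted p = 0.0393) completed the 9. Slc7a2, called in the kidney average, did not pass the test of the difference between the tissues (0.41, SE 0.20, adjusted p = 0.276). Kidneys and aortas were read from separate tables, so a difference between the tables and 1 between the tissues cannot be told apart in levels, and the diet groups lie within each table.

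**Figure D4:**
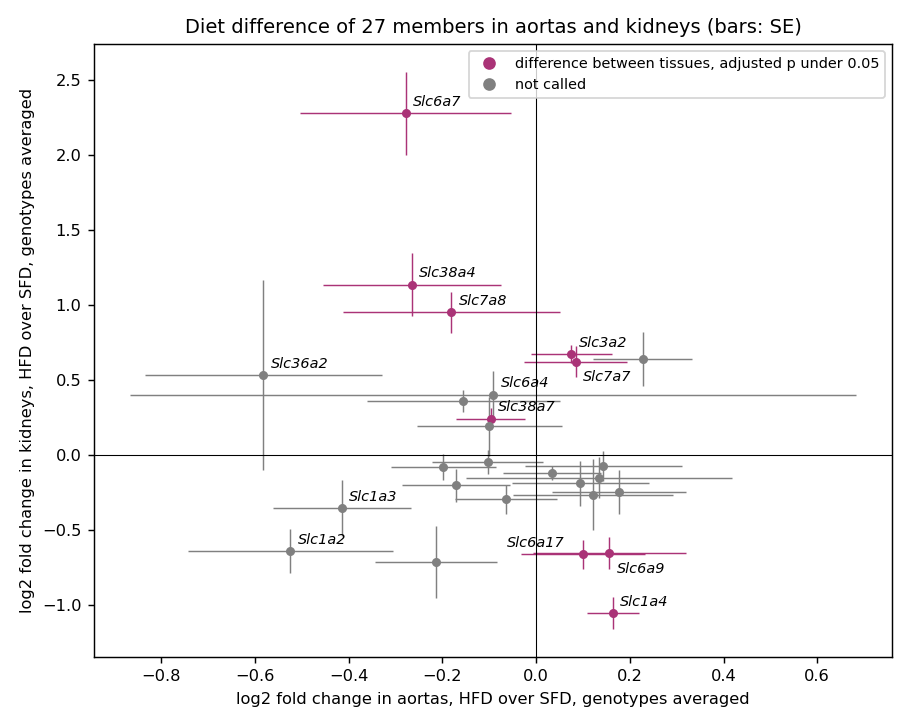
Log2 diet change (HFD against SFD, averaged over genotypes) of the 27 shared members in aortas and in kidneys, with standard errors, and the members past the test of the difference. Slc1a4 lies below 0 in kidneys and slightly above 0 in aortas, and Slc3a2, Slc7a7 and Slc7a8 lie above 0 in kidneys with aortic values near 0.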

How the data were processed

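Polyadenylated RNA of 20 kidneys and 20 aortas was sequenced in paired reads of 150 bases. The authors deposited whole-number read counts per gene for each tissue, made per the labels by mapping to GRCm38/mm10 with HISAT2 2.1.0 and counting with featureCounts. The paper's methods name another mapper for this step, and the strand setting of the counting is not stated, so reads of overlapping antisense genes (such as Slc6a19os, Slc36a1os and Slc36a3os) may not be separated.

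The counts of each tissue were fitted in 1 model of 4 groups with edgeR 4.0.16 (R 4.3.3): filterByExpr, TMM scaling, robust quasi-likelihood F test, and Benjamini-Hochberg adjustment over all genes tested. SE values are the log2 fold change divided by the square root of F. FPM are counts per 1000000 of the TMM-scaled library size. A call is an adjusted p under 0.05. The biological coefficient of variation was 22.3% in kidneys and 29% in aortas. The kidney and aorta tables were joined over 55320 shared genes, of which 17514 were tested. The fits were tested on simulated data. No count was left out, and 0 columns of the tables were unused.

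The members and the gene lists were chosen with earlier results of these data known. Named are all members with a call, the 8 highest per kb in each tissue, the heavy chains with their light chains, those next to the minimum, and, where nothing was called, the 3 smallest p values. Of the other lists, the called genes with the smallest p and some further called genes chosen after their values were seen are named. Alternatives were DESeq2 1.42.0 (Wald test, or its size factors), other filters, fits of only the groups compared, clock and adipocyte scores as covariates, leaving out each library, the near-identical pairs, and a8, a9 and a17. Leaving out all of these 5 kidney libraries at once was chosen after the data were seen. The labels name separate mice as replicates.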

Additional observations from a re-analysis of the deposited data

Results flagged for a closer look

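Of 64 groups of 5 libraries examined, 5 held a library far from the others, where chance gives about 1 in 20. In kidneys these were Slc3a2 in KO SFD library a8 (204 FPM, next 166), Slc7a13 in WT HFD library a12 (632 FPM, next 935), Slc6a17 in WT HFD library a14 (15.2 FPM, next 12.2), Slc6a9 in KO SFD library a6 (20.3 FPM, next 16.1) and Slc36a2 in KO SFD library a9 (0.504 FPM, next 0.140). Library a12 is 1 of the near-identical pair, and a8 and a9 are 2 of the 3 kidney libraries with high immediate-early genes.

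The diet effect differed between kidneys and aortas by the test in the joint fit for 9 of 27 shared members, where 6.5% of all genes tested were called. Fewer members passed without both near-identical pairs, as given above. On the log2 scale, kidneys minus aortas, it was higher for Slc6a7 (2.53), Slc38a4 (1.39), Slc7a8 (1.12), Slc3a2 (0.59), Slc7a7 (0.53) and Slc38a7 (0.33), and lower for Slc1a4 (-1.22), Slc6a9 (-0.82) and Slc6a17 (-0.77).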

How the results depend on the processing

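No paired analysis was possible because the groups within a tissue share no replicate numbers, and a kidney and an aorta of the same number belong to different groups. With a fold change over 1.5 and over 5 FPM as further conditions, the kidney diet calls were 5 in WT, 10 in KO and 11 in the average. In KO they were 10 without a8, a9 and a17 and 10 without a1, a12, a8, a9 and a17. Leaving out each library in turn gave 9 to 13 calls in WT, 12 to 17 in KO and 19 to 22 in the average, 31 to 32 for kidney against aorta, 8 to 9 for the diet effect between tissues, and 0 for each genotype, interaction and aortic diet comparison. Under every alternative that kept the threshold, 7 of 13 WT calls, 9 of 17 KO calls and 16 of 22 averaged calls remained, Slc3a2, Slc7a8, Slc7a13, Slc1a4, Slc6a15 and Slc6a7 among them in all 3 comparisons. With the adipocyte score as a covariate the uncalled Slc36a2 change in WT aortas turned from -0.66 to 0.0811 (adjusted p = 0.909), and the cause was not tested. Over 79 results for named genes and 2297 values under alternatives, 2101 kept direction and side of the threshold, 195 lost the call and 1 reversed. Levels under 1 FPM, such as those of Slc6a7 in SFD kidneys, rest on few counts.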
